A study of Homo sapiens with 9 samples.

Results

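The 10 nuclear receptor genes linked with myeloid cells, RARA, RARG, RXRA, RXRB, VDR, PPARG, PPARD, NR3C1, NR4A1 and THRA, were followed in U937 cells after induction of the fusion protein AML1-ETO or ETO2-GLIS2. The genes were taken by name, each name matched 1 identifier, and they are 10 of the 60623 genes measured. RXRA fell in the AML1-ETO cells from 18.7 FPKM before induction to 2.14 FPKM after 48 h, RARA fell and NR3C1 rose in the same cells, and none of the 10 genes passed 2-fold at 12 h or 48 h in the empty vector or the ETO2-GLIS2 cells. On GRCh38.p14, RXRA (ENSG00000186350) lies at chr9:134326455-134440585, RARA (ENSG00000131759) at chr17:40309180-40357643 and NR3C1 (ENSG00000113580) at chr5:143277931-143435512. FPKM is the number of fragments per kilobase of exon, scaled to the size of the library. Comparisons between genes depend on the exon length used for each gene, whereas changes of one gene between libraries do not.

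U937 is a human monoblastic leukaemia line. Each line studied is a clone of it, made with a retroviral vector and induced with doxycycline at 5 µg/ml: U937-AE carries HA-tagged AML1-ETO, U937-EG carries HA-tagged ETO2-GLIS2, and U937-CTR carries the empty vector. Bulk RNA-seq was made at 0 h without induction and after 12 h and 48 h of doxycycline, 1 library per line and time and 9 in all, so no difference has a replicate check and no p-value is given. All 3 lines received the drug, and the empty vector line serves as the reference for change with drug and time. It is itself 1 clone with 1 library per time, so clone and library differences are not separated from drug and time.

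Nuclear receptors are transcription factors that are switched by small lipid-soluble ligands, or that act without a known ligand. Retinoid X receptors (RXRs) pair with the retinoic acid receptors, the vitamin D receptor, the PPARs and the thyroid hormone receptors, and without ligand many of these pairs recruit corepressors to DNA. Retinoic acid drives granulocytic maturation and vitamin D drives monocytic maturation of myeloid leukaemia cells, PPARG acts in macrophage lipid handling, and the glucocorticoid receptor NR3C1, which binds DNA without RXR, restrains inflammatory genes.

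The libraries held 15136400 to 18443641 reads on genes. RUNX1T1, the ETO part of AML1-ETO, was at 0.512 FPKM at 0 h, 22.2 at 12 h and 28.7 at 48 h in U937-AE and at most 0.0240 in the other lines. GLIS2 was at 2.39, 6.79 and 8.85 FPKM in U937-EG, but also at 2.47 to 5.60 in the lines without its construct. Of 8 monocytic markers, 4 to 6 reached 1 FPKM in each library, among them SPI1, CD33, LYZ and FCGR1A, whereas CD14 and CD68 were at or near 0 throughout. Of 10 markers of other cells 7 were listed at 0 in every library.

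The sequences before the start sites of RXRA and RXRB are shown because these partner genes went different ways in U937-AE, and because the AML1 part of AML1-ETO binds RUNX motifs. They are the 250 bases before the transcript start from RefSeq on GRCh38.p14, written 5′ to 3′ along the gene, and capitals mark the letters TGTGGT or TGCGGT on either strand (on the other strand ACCACA or ACCGCA). The first RXRA start lies after chr9:134326205-134326454 on the plus strand, the second RXRA start after chr9:134379045-134379294 on the plus strand, and the RXRB starts, on the minus strand, are next to chr6:33200854-33201103 (first) and chr6:33200666-33200915 (second), which overlap.
RXRA, first start: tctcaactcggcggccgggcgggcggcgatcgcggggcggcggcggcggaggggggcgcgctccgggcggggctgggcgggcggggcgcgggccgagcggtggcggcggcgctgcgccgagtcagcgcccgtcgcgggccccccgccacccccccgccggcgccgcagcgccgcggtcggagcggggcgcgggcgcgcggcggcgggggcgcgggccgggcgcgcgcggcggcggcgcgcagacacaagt
RXRA, second start: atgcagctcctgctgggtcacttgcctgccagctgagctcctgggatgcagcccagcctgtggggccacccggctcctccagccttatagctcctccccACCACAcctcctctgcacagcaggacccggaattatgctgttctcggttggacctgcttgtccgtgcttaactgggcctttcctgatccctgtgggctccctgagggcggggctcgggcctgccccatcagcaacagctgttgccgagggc
RXRB, first start: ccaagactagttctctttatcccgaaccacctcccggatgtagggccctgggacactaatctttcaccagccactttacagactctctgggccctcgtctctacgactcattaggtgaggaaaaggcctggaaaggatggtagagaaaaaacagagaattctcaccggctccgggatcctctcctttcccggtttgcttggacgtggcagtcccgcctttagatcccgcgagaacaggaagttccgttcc
RXRB, second start: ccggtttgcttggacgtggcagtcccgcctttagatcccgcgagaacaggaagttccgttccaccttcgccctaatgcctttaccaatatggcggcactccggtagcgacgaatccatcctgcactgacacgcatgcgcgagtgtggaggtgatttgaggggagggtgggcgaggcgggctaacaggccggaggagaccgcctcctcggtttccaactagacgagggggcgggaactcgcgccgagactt
The first RXRA stretch has no RUNX letters and is 89.2% G and C. The second holds 1 match, which begins at base -151 counted back from the start, and is 64.4% G and C. The RXRB stretches have none and are 53.6% and 61.6% G and C. RUNX letters stood in 16.3% of 34943 such stretches of all genes, and in 6 of the 25 stretches of 9 of these genes (VDR had no entry). The 6 belong to 4 genes, and none of the 3 RARA stretches has a match. The PPARG stretches at chr3:12301517-12301766 and chr3:12301725-12301974 overlap and share the same match, which is counted for each. ETS letters (GAGGAAGT or ACCGGAAGT), GLIS letters (TGGGGGGT) and C/EBP letters (TTGCGCAA or TTGTGCAA), searched on both strands, stood in none of the 25 and in 2.96%, 1.33% and 0.790% of all stretches. The matches describe only the letters given, and other forms of these motifs were not searched. Which start these cells use was not analysed here.

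A gene counts as past the threshold where its log2 fold change, computed on log2(FPKM + 0.01), exceeds 2-fold and the level averaged over the pair of libraries is at least 1 FPKM. All 10 genes met the level filter in each comparison. In U937-AE at 48 h, 2 of the 10 were lower (RXRA and RARA), beside 11.3% of 11968 genes, and 1 was higher (NR3C1), beside 17.1%. No other time or line had a call, beside a background of 7.25% of genes in either direction in U937-CTR, 8.73% in U937-AE and 4.32% in U937-EG at 12 h. At 48 h the background was 7.82% higher and 2.9% lower in U937-CTR, and 10.6% higher and 2.51% lower in U937-EG. These counts of 0 to 2 in 10 genes are close to the shares of all genes, so they are no result about the receptors as a group, and the values of the single genes follow.

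The intervals given here in brackets are exact 95% intervals of the ratio of the reads behind the FPKM values, and cover counting error only. No molecular identifiers were used, so several reads can stem from one molecule, and the spread between cultures is not in them. In a bulk sample, fewer cells of a type and less RNA per cell cannot be told apart. Over all genes the median change at 48 h was, on the log2 scale, 0.16 in U937-CTR, 0.22 in U937-AE and 0.16 in U937-EG, and the median of the 10 receptors was 0.37, -0.45 and 0.44. After the libraries were rescaled to a common median ratio the all-gene medians were 0.02, 0.06 and 0.02.

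RXRA, the RXR that myeloid cells use most, was at 16.8, 18.3 and 18.9 FPKM at 0, 12 and 48 h in U937-CTR. It was at 18.7, 10.6 and 2.14 FPKM in U937-AE and at 13.3, 14.5 and 17.7 FPKM in U937-EG. The 2 induced U937-AE libraries were the lowest of the 9, and they rest on 1974 and 394 reads, against 3738 at 0 h. The fall at 48 h was -3.12 on the log2 scale [-3.28, -2.97], 8.67-fold, and 184 of the 11968 genes (1.54%) had a lower value. At 12 h it was at -0.82 [-0.90, -0.74], which did not pass 2-fold. The change in U937-EG at 48 h was 0.41 [0.34, 0.48] and that in U937-CTR 0.17 [0.10, 0.24], neither past 2-fold. With the change of the empty vector line subtracted, RXRA stood at -3.29 [-3.45, -3.12] in U937-AE and at 0.23 [0.14, 0.33] in U937-EG.

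RXRB, which can replace RXRA as a partner, had 16.2, 18.4 and 20.0 FPKM in U937-CTR, 16.9, 21.7 and 28.1 in U937-AE, and 16.9, 17.8 and 21.2 in U937-EG. Its highest level was in U937-AE at 48 h, above all other libraries beyond counting error, with a log2 fold change of 0.73 [0.62, 0.85] that did not pass 2-fold. The level of RXRA over that of RXRB went from 1.11 at 0 h to 0.488 and 0.0763 in U937-AE. It stayed between 0.946 and 1.04 in U937-CTR and between 0.790 and 0.834 in U937-EG. RXRA therefore made up 52.5%, 32.8% and 7.07% of the summed RXR level in U937-AE, whereas the sum went from 35.6 to 32.3 and 30.3 FPKM. The size of these ratios, shares and sums rests on the exon lengths behind the FPKM values, 12077 bases for RXRA and 3920 for RXRB. In reads, U937-AE had 3738 for RXRA and 1098 for RXRB at 0 h. RXRG was at 0.0737 FPKM or less in every library. Of the exon bases of RXRB 9.26% lie under exons of SLC39A7 on the other strand, and the library kit does not mark strand. SLC39A7 was at 91.6, 69.9 and 81.0 FPKM in U937-AE, and its part in the RXRB values was not tested.

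RARA, the receptor through which retinoic acid acts in promyelocytes, was at 5.65, 6.81 and 8.52 FPKM in U937-CTR. It was at 4.45, 3.21 and 1.93 FPKM in U937-AE, on 350, 235 and 139 reads, and at 5.22, 5.10 and 7.69 FPKM in U937-EG. The 3 U937-AE libraries were the lowest of the 9, including the library taken before induction. RARA fell in U937-AE at 48 h by 1.20 on the log2 scale [-1.50, -0.92], after a value of -0.47 [-0.72, -0.23] at 12 h. The empty vector line had 0.59 [0.41, 0.77] and U937-EG 0.56 [0.38, 0.74] at 48 h. The change in U937-AE minus that in U937-CTR was -1.80 [-2.13, -1.46], and in U937-EG -0.03 [-0.28, 0.22]. With a pseudocount of 1 FPKM the change in U937-AE was -0.90, short of 2-fold.

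RARG, a closely related retinoic acid receptor, had 2.89, 3.69 and 4.28 FPKM in U937-CTR, 3.51, 1.98 and 2.01 in U937-AE, and 3.60, 3.10 and 5.00 in U937-EG. It was lowest in the 2 induced U937-AE libraries, which did not differ from each other beyond counting error. The log2 fold change there was -0.82 [-1.11, -0.54] at 12 h and -0.80 [-1.09, -0.52] at 48 h, neither past 2-fold. With the empty vector change subtracted these became -1.17 [-1.54, -0.80] and -1.36 [-1.73, -0.997]. The summed level of the RAR genes went from 8.04 to 5.28 and 3.97 FPKM in U937-AE, from 8.59 to 10.6 and 12.8 in U937-CTR, and from 8.94 to 8.26 and 12.7 in U937-EG. RARB did not exceed 0.117 FPKM in any library. Exons of 3 genes on the other strand, RARA-AS1 among them, cover 21.4% of the RARA exon bases, and RARA-AS1 itself had 0 to 6 reads. The levels of the others are not reported here, and the part of these 3 genes in the RARA values was not tested.

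VDR, the vitamin D receptor, was at 7.57, 8.92 and 7.27 FPKM in U937-CTR, 8.26, 8.76 and 4.88 in U937-AE and 7.14, 10.2 and 9.33 in U937-EG. Its lowest library was U937-AE at 48 h, and this was the only pair of neighbours in the order of its 9 levels that differed beyond counting error. At 48 h the log2 fold change stood at -0.76 [-0.93, -0.59] in U937-AE, -0.06 [-0.22, 0.10] in U937-CTR and 0.39 [0.24, 0.53] in U937-EG, none past 2-fold. In U937-EG the value at 12 h was 0.51 [0.37, 0.65], the highest of the 10 receptors at that time in that line.

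PPARG, a lipid sensor of macrophages, was at 8.16, 8.75 and 12.1 FPKM in U937-CTR, 8.55, 7.27 and 8.96 in U937-AE and 5.89, 4.29 and 8.34 in U937-EG. The lowest levels were those of U937-EG at 12 h and 0 h, and the highest was U937-CTR at 48 h. The 48 h value on the log2 scale was 0.57 [0.42, 0.72] in U937-CTR and 0.50 [0.33, 0.67] in U937-EG. In U937-AE it was 0.07 [-0.09, 0.23], which turned to the other sign, -0.08, on rescaling. In U937-EG at 12 h PPARG stood at -0.46 [-0.66, -0.26], before the higher level at 48 h.

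PPARD, the PPAR that most tissues express, had 10.6, 13.4 and 14.3 FPKM in U937-CTR, 9.12, 8.02 and 10.3 in U937-AE, and 7.60, 9.23 and 13.1 in U937-EG. U937-EG began with the lowest level of the 9 libraries and at 48 h had 0.79 [0.64, 0.94] on the log2 scale, its largest value among the receptors, short of 2-fold. The value was 0.44 [0.30, 0.58] in U937-CTR and 0.17 [0.02, 0.33] in U937-AE. PPARA, the third PPAR gene, was at 2.46 to 5.34 FPKM, highest in U937-AE at 48 h. PPARG made up 40.0%, 39.1% and 36.5% of the PPAR level in U937-AE and 36.7%, 26.9% and 33.3% in U937-EG.

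THRA, the thyroid hormone receptor of blood cells, was at 11.3, 14.0 and 10.4 FPKM in U937-CTR, 13.5, 12.6 and 8.84 in U937-AE and 8.96, 10.3 and 9.92 in U937-EG. The U937-AE library at 48 h was the lowest, but did not differ beyond counting error from U937-EG at 0 h. At 48 h THRA stood at -0.61 [-0.73, -0.49] in U937-AE, -0.13 [-0.24, -0.01] in U937-CTR and 0.15 [0.03, 0.27] in U937-EG on the log2 scale. Exons of NR1D1 on the other strand cover 6.45% of the THRA exon bases. NR1D1 was at 2.06 to 3.53 FPKM, and its part in the THRA values was not tested. THRB was at 0.0118 FPKM or less.

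NR3C1, the glucocorticoid receptor, was at 9.09, 11.3 and 12.6 FPKM in U937-CTR, 8.29, 10.4 and 16.9 in U937-AE and 9.13, 10.1 and 15.1 in U937-EG. Within each line it was lowest at 0 h and highest at 48 h, and the 3 libraries at 48 h were the highest of the 9. NR3C1 rose in U937-AE at 48 h by 1.03 on the log2 scale [0.93, 1.13]. That value lies at the threshold: it was 0.88 after rescaling, 0.95 with a pseudocount of 1 FPKM and 0.55 [0.41, 0.69] with the empty vector change subtracted, none past 2-fold. The value at 48 h was 0.48 [0.37, 0.58] in U937-CTR and 0.73 [0.64, 0.82] in U937-EG.

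NR4A1, an immediate early receptor of monocytes with no known ligand in the usual sense, had the lowest level of the 10 genes in each library but that of U937-AE at 12 h, where RARG was lower. It was at 1.77, 1.84 and 1.76 FPKM in U937-CTR, 2.29, 2.22 and 1.86 in U937-AE and 1.23, 1.20 and 1.63 in U937-EG. The U937-AE libraries were the highest and the U937-EG libraries the lowest, also before induction, but only 1 of the 8 pairs of neighbours in this order differed beyond counting error. Against 0 h the log2 change at 48 h stood at -0.01 [-0.29, 0.28] in U937-CTR, -0.29 [-0.56, -0.03] in U937-AE and 0.40 [0.09, 0.71] in U937-EG. NR4A2, a relative that is no member of the group, fell in U937-AE from 1.99 FPKM to 0.719 and 0.249, a log2 change of -2.95 at 48 h [-3.88, -2.23]. NR4A1 accordingly went from 52.9% to 74.7% and 86.9% of the NR4A level. The antisense gene NR4A1AS covers 10.3% of the NR4A1 exon bases, and its part in the NR4A1 values was not tested.

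**Figure D1:**
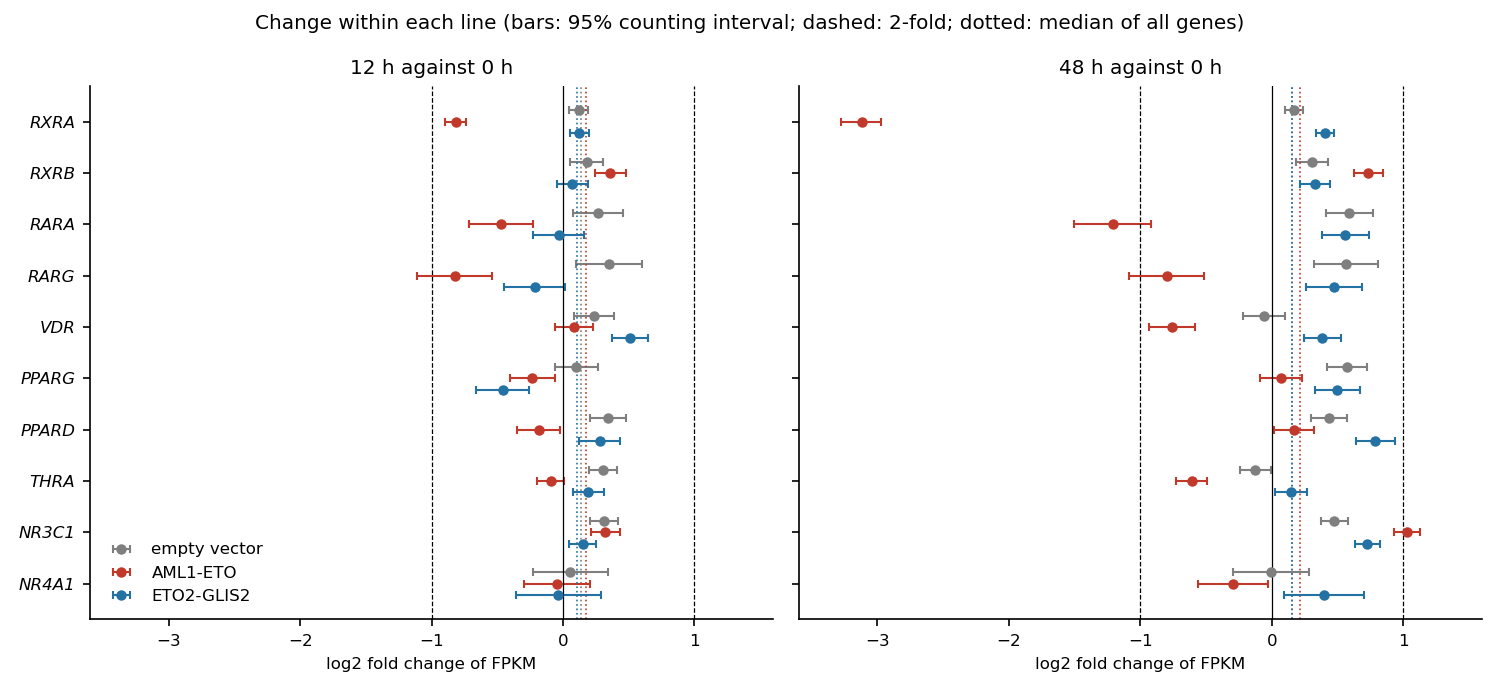
Log2 fold change of each gene (horizontal axis) at 12 h and 48 h against 0 h of the same line, with 95% counting intervals, dashed lines at 2-fold and dotted lines at the median of all genes in that line. At 48 h RXRA and RARA in the AML1-ETO line lie past the lower dashed line at -3.12 and -1.20, and NR3C1 in that line lies at the upper one at 1.03.

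Directions within a line were shared in part. At 12 h all 10 genes lay above 0 in U937-CTR, by 0.05 to 0.35, beside 68.1% of all genes, and 8 of them beyond counting error, beside 41.6%. The all-gene median there was 0.14, and RXRA, PPARG and NR4A1 turned below 0 on rescaling. In U937-EG at 48 h all 10 lay above 0, beside 63.7% of all genes, and all beyond counting error, beside 46.1%. They ran from 0.15 for THRA, which is under the all-gene median of 0.16 and became 0.01 on rescaling, to 0.79 for PPARD. With the empty vector change subtracted, RARA at -0.03, RARG at -0.09 and PPARG at -0.07 lay below 0 in U937-EG, each within counting error. In U937-AE at 48 h 6 lay below 0 beyond counting error, beside 29.7% of all genes, and 3 above 0, beside 48.7%, while PPARG lay within it. The comparisons at 12 h and 48 h share the 0 h library of their line.

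Compared with U937-CTR at the same hour, the uninduced lines had no call among the 10 genes, beside 4.67% of genes for U937-AE and 6.24% for U937-EG. The largest differences at 0 h in either line were those of NR4A1, at 0.37 [0.11, 0.64] on the log2 scale in U937-AE and -0.52 [-0.82, -0.22] in U937-EG, and RARA in U937-AE was at -0.34 [-0.55, -0.14]. At 12 h 1 gene was past 2-fold in U937-AE, RARA at -1.08 [-1.32, -0.86], beside 8.52% of genes. In U937-EG the 1 gene was PPARG, at -1.03 [-1.22, -0.83], beside 6.77% of genes. At 48 h 3 genes were lower in U937-AE, beside 11.7% of genes: RXRA at -3.14 [-3.30, -2.99], RARA at -2.14 [-2.42, -1.88] and RARG at -1.09 [-1.37, -0.81]. None was higher, beside 11.6%. In U937-EG at 48 h none was past 2-fold, beside 6.36%, and the range was -0.54 for PPARG to 0.36 for VDR. All these values share the U937-CTR libraries.

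The receptors did not differ evenly between libraries. The highest level was 8.84 times the lowest for RXRA and 4.42 times for RARA, and between 1.58 and 2.82 times for the other 8. Places in the order of genes depend on the exon lengths used. In U937-AE RXRA went from the first place among the 10 genes at 0 h to the third at 12 h and 7 of 10 at 48 h. Of all genes above 0, 88.8% had a lower level than RXRA at 0 h and 56.3% at 48 h. RXRB held the first place in U937-AE after induction, with 93.0% of genes below it at 48 h. Among the monocytic markers, SPI1, which encodes the myeloid factor PU.1, was lower at each later time in U937-AE, as RXRA and RARA were, at 92.6, 53.1 and 11.9 FPKM. The summed level of the 8 markers, mostly that of LYZ, did not follow these receptors: it went from 1072 to 1415 and 67.9 FPKM in U937-AE, from 597 to 870 and 498 in U937-CTR, and from 1385 to 1618 and 443 in U937-EG. The markers differed among themselves. In U937-AE at 48 h 2 of 4 tested markers were lower, SPI1 and LYZ, and none was higher. In U937-EG 2 of 5 were higher and 1 lower: ITGAM, the integrin chain CD11b, rose from 2.23 to 11.5 FPKM and CD33 from 6.16 to 12.4 FPKM, while LYZ fell from 1283 to 332 FPKM. In U937-CTR 1 of 5 was higher, ITGAM, from 1.17 to 2.78 FPKM. The part of these markers in the receptor values was not tested.

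Genes around the receptors were counted in lists taken from general knowledge, but chosen with earlier results of these data known. No list was tested. The level filter was applied to each line, so the tested genes can differ between lines. Counts and medians are then over unlike genes. The counts at 48 h stand beside 7.82% of all genes higher and 2.9% lower in U937-CTR. These shares were 17.1% and 11.3% in U937-AE, and 10.6% and 2.51% in U937-EG. Of 10 corepressor genes 8 were expressed, and none of them passed 2-fold at 48 h in U937-CTR or U937-EG. The median of the list at 48 h was -0.15 in U937-CTR, 0.11 in U937-AE and 0.07 in U937-EG.

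Of 12 coactivator genes 11 were expressed, and 1 was higher and 1 lower in U937-AE at 48 h, with none in the other lines. NCOA2, a p160 coactivator, rose from 9.21 to 20.3 FPKM, by 1.14 [1.05, 1.23]. KAT2B, the histone acetyltransferase PCAF, went from 8.70 to 1.08 FPKM, a log2 change of -2.99 [-3.49, -2.55], and was at 11.7 FPKM in U937-EG and 13.9 in U937-CTR at 48 h. The list's median was 0.01, 0.35 and 0.30 in U937-CTR, U937-AE and U937-EG. None of the 8 chaperone genes that fold steroid receptors passed 2-fold in any line at 48 h, and their medians were -0.01, 0.01 and -0.39.

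Of 22 genes that make, bind or break down receptor ligands only 4 reached the level filter at 48 h in each line, with medians of 0.13 in U937-CTR, -0.24 in U937-AE and 0.16 in U937-EG. The one past 2-fold was DHRS3, a retinal reductase and a retinoic acid target, which rose in U937-EG from 1.47 to 4.19 FPKM, by 1.51 [1.17, 1.87]. It was at 2.33 and 2.75 FPKM in U937-CTR and at 1.85 and 1.31 in U937-AE at 0 h and 48 h.

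Retinoid targets went different ways by gene. Of the 10 listed, 5 were tested at 48 h in U937-CTR (2 higher), 5 in U937-AE (1 higher, 1 lower) and 6 in U937-EG (3 higher), with medians of 0.47, -0.37 and 1.08. PLAAT4 was tested in U937-EG only, where it is 1 of the 3 higher genes, so these counts and medians are not like for like. CD38, a surface enzyme induced by retinoic acid in myeloid cells, was at 1.78, 4.92 and 3.75 FPKM in U937-CTR, 2.38, 2.04 and 0.173 in U937-AE and 2.17, 6.20 and 8.91 in U937-EG. It rose by 1.08 in U937-CTR and by 2.03 in U937-EG, and fell by 3.71 in U937-AE. CEBPE, a granulocytic transcription factor, rose by 1.19 in U937-AE, from 10.7 to 24.4 FPKM, and by 1.10 in U937-CTR, from 6.45 to 13.8 FPKM. PLAAT4 rose in U937-EG from 0.417 to 1.83 FPKM, by 2.11 [1.11, 3.30], and passed the level filter through its 48 h library.

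Vitamin D targets were tested for 4 of 9 genes in U937-CTR, 3 in U937-AE and 4 in U937-EG. The calls were 2 higher in U937-CTR, 2 lower in U937-AE and 2 higher in U937-EG, with medians of 1.11, -1.96 and 0.97. CAMP was not tested in U937-AE, so these counts and medians are not over one set of genes. THBD, thrombomodulin, was at 12.8, 6.37 and 3.29 FPKM in U937-AE and fell by 1.96 [-2.19, -1.74], but rose in U937-EG from 9.51 to 24.0 FPKM by 1.33 [1.21, 1.46]. In U937-CTR THBD also rose, from 10.2 to 19.7 FPKM by 0.95, short of 2-fold. NINJ1, a membrane protein of cell rupture, fell in U937-AE from 10.8 to 0.151 FPKM, a log2 change of -6.06 [-7.61, -5.02] and rose in U937-CTR from 8.55 to 20.0 FPKM by 1.23 [1.05, 1.41]. CAMP, the antimicrobial peptide cathelicidin, rose in U937-EG from 3.35 to 8.12 FPKM by 1.28 [0.76, 1.82]. In U937-CTR it went from 0.743 to 2.09 FPKM, 1.48 [0.34, 2.78], on 9 and 24 reads and passed the level filter through its 48 h library, and it had no reads in U937-AE at 48 h.

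Among PPAR targets, 3 of 6 tested genes were higher and 1 lower in U937-AE at 48 h. In U937-EG 1 of 5 was higher, and in U937-CTR none of 5 was called. U937-AE also had the largest shares of calls over all genes at 48 h, 17.1% higher and 11.3% lower. The medians were 0.98 in U937-AE, 0.60 in U937-EG and 0.46 in U937-CTR. CD36, 1 of the 3 higher genes, was tested in U937-AE only, so these counts and medians are not over one set of genes. PLIN2, which coats lipid droplets, was at 10.2, 27.0 and 180 FPKM in U937-AE and rose by 4.15 [4.05, 4.25], and in U937-EG it rose from 11.7 to 24.8 FPKM by 1.08 [0.97, 1.19]. In U937-CTR PLIN2 went from 10.0 to 16.6 FPKM. CD36, a fatty acid and scavenger receptor, rose in U937-AE from 0.166 to 6.72 FPKM, and passed the filter through that library. ACADVL, an enzyme of fatty acid oxidation, rose there from 70.9 to 161 FPKM by 1.19 [1.14, 1.23]. CPT1A, which brings fatty acids into mitochondria, fell there from 31.1 to 4.63 FPKM, a log2 change of -2.74 [-2.89, -2.61].

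Glucocorticoid targets were called both ways: 1 higher and 1 lower of 9 in U937-CTR, 2 higher and 3 lower of 8 in U937-AE, and 1 higher and 1 lower of 8 in U937-EG, with medians of -0.20, -0.61 and 0.10. MT2A, a metallothionein, rose in all 3 lines at 48 h, from 20.7 to 123 FPKM in U937-CTR, from 31.7 to 450 in U937-AE and from 38.1 to 261 in U937-EG. KLF9 fell in U937-AE from 4.09 to 1.18 FPKM, a log2 change of -1.78 [-2.14, -1.46]. ZBTB16 fell in U937-AE from 2.23 to 0.288 FPKM, a log2 change of -2.91, and had one of -1.10 in U937-CTR. DUSP1, a phosphatase that ends MAP kinase signals, fell by 1.86 in U937-AE and by 1.57 in U937-EG. In U937-CTR DUSP1 went from 3.76 to 2.42 FPKM. ERRFI1 rose in U937-AE by 1.08 [0.81, 1.36]. Of 5 genes controlled by the oxysterol receptors 3 were tested, and SREBF1, the regulator of fatty acid synthesis, had a log2 change of -1.18 in U937-CTR and -1.003 in U937-EG, both past 2-fold. The medians of that list were -0.99 in U937-CTR, -0.05 in U937-AE and -0.44 in U937-EG.

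Of the 38 other nuclear receptors, 13 had a mean of at least 1 FPKM over the 9 libraries, 9 were listed at 0 in all libraries and 23 had a mean under 0.1 FPKM. At 48 h the calls were 1 higher and 1 lower of 13 in U937-CTR, 1 higher and 1 lower of 12 in U937-AE, and 1 lower of 13 in U937-EG, with medians of -0.21, 0.23 and 0.27. NR2F2, the orphan receptor COUP-TFII, fell from 19.5 to 6.02 FPKM in U937-CTR and from 18.2 to 7.84 FPKM in U937-EG. It was at 36.1, 21.6 and 20.3 FPKM in U937-AE. NR6A1, an orphan receptor of germ cells, rose in U937-AE from 2.01 to 5.17 and 10.3 FPKM, by 2.35 [2.16, 2.57] at 48 h. ESRRA, a regulator of mitochondrial genes, rose in U937-CTR from 18.3 to 37.9 FPKM by 1.05 [0.94, 1.17].

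The genes whose pattern was most like that of a receptor were taken by Pearson's r of log2 levels over the 9 libraries among 7219 genes with a mean of at least 5 FPKM, as a description, since the libraries share lines and times. For RXRA they were C15orf39 (r = 0.995), ARID5A (0.994) and GRK2 (0.994). C15orf39 was at 27.9, 11.7 and 1.97 FPKM in U937-AE and at 19.1 to 29.4 FPKM in the other libraries. For RARA they were LIN54 (0.979), SPN (0.977) and SLC1A4 (0.977), and for NR3C1 N4BP2L2 (0.985), ANKRD10 (0.983) and CLIP1 (0.983). The values were lower for PPARG, whose closest gene was GABPB2 at 0.909.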

How the data were processed

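The authors aligned the reads of 9 bulk RNA-seq libraries to hg38 with HISAT2 2.0.5, handled them with SAMtools 1.7, counted them per gene with the default settings of HTSeq 0.9.1, and deposited 1 table of FPKM values per library for 60623 genes (59410 names). The TruSeq RNA kit does not mark strand, whereas the default setting of HTSeq reads strand, so reads of a gene and of a gene on the other strand cannot be told apart. The annotation release is not given in the sources used here. FPKM values are relative within a library, so a shift of total RNA per cell is not seen. Where several identifiers share a name, the one with the highest mean was used.

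Whole reads were recovered from the steps of the FPKM values for 23875 of 23889 genes above 0 in at least 3 libraries (99.9%, within 0.05 reads), which gave library totals and the counting intervals. A count test was not run, since each condition has 1 library. For 7 of the 10 receptors the exon length implied by these steps equalled that of the annotation used here for exon overlaps, which is on GRCh37, and gene positions and promoters are from RefSeq GRCh38.p14.

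Levels were compared on log2(FPKM + 0.01) with a level filter of a mean of 1 FPKM over both libraries and a 2-fold threshold. Intervals of a change minus the empty vector change are normal approximations from counting error. The procedure was tested on simulated data. The receptors and gene lists were chosen with earlier results of these data known. Genes named beside the receptors were those past 2-fold at 48 h in each list, at most 3 a direction and line, the 3 genes most like each receptor with at least a 2-fold range, genes carried by the constructs and genes overlapping a receptor. Alternatives were pseudocounts of 0.1 and 1 FPKM, no filter or a filter of 5 FPKM, a 1.5-fold threshold, rescaling by the median ratio over 9766 genes, and the empty vector line as reference or subtracted. Python 3.11.15, numpy 2.4.6, pandas 2.3.3, scipy 1.17.1 and matplotlib 3.10.9 were used. ChIP-seq was not analysed here, and some genes of the lists are not reported here.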

Additional observations from a re-analysis of the deposited data

Results flagged for a closer look

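RXRA, CPT1A, KAT2B and THBD moved in opposite directions in the fusion lines, with the AML1-ETO libraries at 12 h and 48 h both lower and the ETO2-GLIS2 libraries both higher than their own 0 h library beyond counting error. With 1 library per condition this difference was not tested. The U937-EG value of RXRA at 12 h was small, 0.12 on the log2 scale, and became 0.02 on rescaling and 0.01 [-0.09, 0.11] with the empty vector change subtracted, so that it no longer lay beyond counting error with that change subtracted. The U937-EG value of CPT1A was 0.14 at 12 h and 0.18 at 48 h, beside all-gene medians of 0.11 and 0.16. It thus lay close to the shift of all genes at both times. KAT2B was at 0.28 at 12 h and 0.66 at 48 h in U937-EG. It also rose in U937-CTR, from 9.58 to 12.4 and 13.9 FPKM, so its rise was not particular to U937-EG. THBD was at 0.38 and 1.33 in U937-EG, and went from 10.2 to 9.90 and 19.7 FPKM in U937-CTR. For RXRA the log2 fold change at 48 h in U937-AE minus that in U937-EG was -3.52, with 0.17 in the empty vector line. For CPT1A it was -2.92, with -0.26 in the empty vector line, for KAT2B -3.65, with 0.53, and for THBD -3.29, with 0.95.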

How the results depend on the processing

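No paired analysis was possible because each condition has 1 library, and for the same reason no library could be left out. The count of receptors past the threshold in U937-AE at 48 h, 3 as reported, was 1 with a pseudocount of 1 FPKM (RXRA) and 7 at 1.5-fold, and 2 or 3 under the other alternatives, but not with the same members. The reported 1 higher and 2 lower became 0 higher and 3 lower with the empty vector change subtracted (NR3C1 lost, RARG gained at -1.36) and 0 higher and 2 lower on rescaling. At 1.5-fold the counts of 0 became 1 in U937-CTR at 48 h, 2 in U937-AE at 12 h and 2 in U937-EG at 48 h. With the empty vector change subtracted, the count in U937-AE at 12 h became 1 (RARG). No receptor past the threshold reversed. Of the 60 single changes within a line, 60 kept their sign with either pseudocount and 54 on rescaling. Of the 40 changes in the fusion lines, 30 kept their sign with the 0 h library of the empty vector line as reference and 30 with its change subtracted. The counting intervals do not cover these choices. Of the 60 values, 2 left their interval with a pseudocount of 1 FPKM and 22 on rescaling. Of the 40, 24 left it with the empty vector 0 h library as reference and 32 with the empty vector change subtracted. The fall of RXRA in U937-AE at 48 h stayed between -3.29 and -2.65. Depth limited RARA, RARG and NR4A1 most, with 139 to 622 reads a library.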
